A study of Homo sapiens with 18 samples.

Results

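The windows described here cover the end of the long arm of human chromosome 8, from 130 Mb to the last window of the chromosome (hg19). They were chosen by position, after PEO4 had been seen to exceed PEO1 there, and 1985 of the 89428 windows of the accessibility table fall in this stretch. Of these, 169 were promoter windows, with the centre between 1000 bp upstream and 100 bp downstream of a protein-coding transcript start, and 1816 were distal windows. The reference was the remainder of 8q, the long arm between the centromere and 130 Mb, with 342 promoter and 2800 distal windows. Chromatin accessibility had been profiled by ATAC-seq, in which the Tn5 transposase inserts sequencing adapters into open DNA, in 6 ovarian cancer cell lines with 3 libraries each. All lines are established cultures, and none was given drug in these libraries as far as the labels say.

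The lines form 3 pairs. A2780 was platinum sensitive and CP70 is its resistant derivative, selected in culture, and the labels name the source of both as endometrial or ovarian cancer. PEA1 was labelled sensitive and PEA2 resistant, and both come from 1 patient with high-grade serous disease, before chemotherapy and after resistant relapse. PEO1 was labelled sensitive and PEO4 resistant, and both come from another patient, on either side of clinical resistance. Each line is 1 culture from 1 patient, so a pair compares 2 lines and not a drug response, and the labels do not say whether the 3 libraries of a line came from separate cultures. p-values therefore measure the spread between these libraries only.

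The end of 8q is frequently gained in high-grade serous ovarian cancer, and MYC lies just before the limit used here. The stretch holds kinases and adaptors of cell adhesion, the LY6 family of small surface proteins, a block of housekeeping genes of translation and metabolism, and a cluster of zinc finger genes at the very end. An ATAC-seq read count rises both with how open a site is and with how many copies of it a cell carries. Copy number was not measured in these libraries, so the number of copies and the openness of each copy cannot be told apart.

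Library totals ranged from 8963079 to 60435027 reads, and the mean share of a line's reads that fell in the windows of the table ranged from 9.26% ± 0.832 in A2780 to 39.9% ± 0.949 in PEO1 (SD, n = 3). PEO4 had 34.4% ± 1.51. Between-pair levels are therefore given against reference windows of the same library. The median member window held 12.7 ± 2.08 reads in PEO1 and 48.0 ± 5.29 reads in PEO4 (SD, n = 3). Every window of the table exceeded 2 FPKM (reads per kilobase of window, scaled to library size) in at least 2 of the 18 libraries, so a window could enter through PEO4 alone, as 352 distal and 14 promoter members did. The start windows of 8 markers of ovarian and simple epithelium (PAX8, WT1, EPCAM, CDH1, KRT8, KRT18, KRT19 and MSLN) averaged between 3.03 and 20.6 FPKM in the PEO lines, between 0.971 and 4.10 FPKM in the PEA lines and under 2 FPKM in A2780 and CP70. The start windows of the blood and endothelial markers, of COL1A1 and DCN and of MUC16 were not analysed here, and that of COL1A2, a fibroblast marker, averaged at most 2.17 FPKM.

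Against the remainder of 8q, PEO1 stood low at the end of the chromosome, and PEO4 did not stand high. The measure was the median log2(FPKM + 0.1) of the members minus the median of the reference windows of the same class. In distal windows it was -1.14 ± 0.11 in PEO1 and -0.13 ± 0.04 in PEO4 (log2 difference, SD, n = 3). The other lines were all above 0, CP70 at 1.11 ± 0.10, A2780 at 0.81 ± 0.20, PEA1 at 0.58 ± 0.13 and PEA2 at 0.49 ± 0.19. PEO4 was thus 2.02-fold above PEO1 while lying below the other 4 lines. In promoter windows the level was -1.18 ± 0.07 in PEO1 and 0.05 ± 0.08 in PEO4. A2780 reached -0.09 ± 0.21 and CP70 0.01 ± 0.15, and PEA1 and PEA2 lay between, at -0.53 ± 0.16 and -0.30 ± 0.25. The PEO4 promoter windows were 2.34-fold above those of PEO1 on this scale. PEO1 and PEO4 did not overlap in either class, whereas the promoter levels of A2780, CP70 and PEO4 overlapped.

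With promoter windows of all other autosomes as reference, PEO4 did stand high. Its level was 1.00 ± 0.05, against -0.29 ± 0.01 in PEO1 and between -0.10 and 0.19 in the other 4 lines (log2 difference, SD, n = 3). The median member promoter held 11.1 ± 0.971 FPKM in PEO4 and 4.67 ± 0.214 FPKM in PEO1, whereas the median promoter in the rest of 8q held 10.7 FPKM in both. In distal windows the same reference gave 0.32 ± 0.02 in PEO4, within the range of 0.23 to 0.61 set by the other 4 lines, and -1.02 ± 0.09 in PEO1. By these levels over the whole region, the description of the end of 8q as raised in PEO4 therefore held against PEO1 in both classes. It held against the other lines only for promoters with the other autosomes as reference, and did not hold against the remainder of 8q. In the windows beyond 145.6 Mb, PEO4 did stand above the rest of 8q, by 0.75 ± 0.14 in promoter and 0.76 ± 0.15 in distal windows (log2 difference, SD, n = 3). A2780 and CP70 also stood above it there. They did so by 0.63 ± 0.02 and 0.37 ± 0.16 in promoter windows. In distal windows they exceeded PEO4, at 1.25 ± 0.35 and 1.79 ± 0.16. PEO1, PEA1 and PEA2 averaged below it in both classes.

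**Figure D1:**
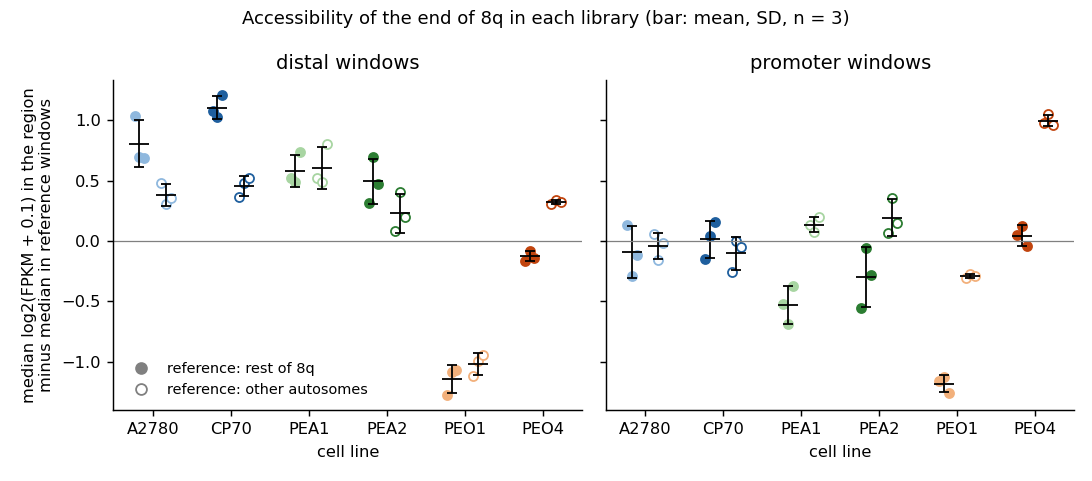
Level of the end of 8q in each of the 18 libraries, as the median log2(FPKM + 0.1) of member windows minus that of reference windows, for distal (left) and promoter windows (right). Filled points use the rest of 8q and open points the other autosomes as reference, and bars give the mean and SD of 3 libraries. PEO1 is lowest throughout, and PEO4 lies above every library of the other lines only for promoter windows against the other autosomes.

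The share of the table's reads that fell in the members gave the same order of the PEO lines. It was 1.60% ± 0.0217 in PEO1 and 3.17% ± 0.0303 in PEO4, and between 1.93% and 2.64% in the other 4 lines (SD, n = 3). By this share every PEO4 library, from 3.14%, lay above every library of the other lines, of which the highest was 2.94% in PEA1. The members here include the windows that entered through PEO4 alone. The reads of the members stood to those of the rest of 8q as 0.375 ± 0.00598 in PEO1 and 0.654 ± 0.0199 in PEO4. This ratio was 0.662 ± 0.0837 in PEA1, 0.793 ± 0.0538 in PEA2, 0.810 ± 0.115 in A2780 and 0.866 ± 0.141 in CP70, so PEO4 overlapped PEA1.

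Over the members, 1837 had a mean above 1 FPKM in the PEO pair. Of these, 1040 exceeded a log2 fold change of 1 in PEO4 and 96 fell below -1, where 9.63% and 23.6% of all windows did. A log2 fold change above 2 was seen in 271 and below -2 in 10, against 2.72% and 5.78% of all windows. Since this contrast chose the region, these counts carry no test. The 3 PEO4 libraries lay wholly above the 3 PEO1 libraries in 1426 of the 1985 members, against 21.5% of all windows. PEO4 had the highest mean log2 level of the 6 lines in 144 of 169 promoter members and 976 of 1816 distal members, against 40.3% of all promoter and 23.9% of all distal windows, and the lowest in none. These counts include the windows that entered the table through PEO4 alone. PEO1 had the lowest mean in 625 distal and 27 promoter members, against 8.89% and 2.68% of all windows of these classes.

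The difference was not spread evenly along the stretch. From 130 to 139 Mb the median log2 difference between PEO4 and PEO1 was 0.22 over 624 windows, of which 61.1% were higher in PEO4. Only the 28 windows from 137 to 138 Mb stood out there, with a median of 1.09. Between 139 and 140.5 Mb the median was -0.41 over 87 windows, and from 140.5 to 143 Mb it was 1.01 over 424 windows. From 143 Mb to the end it was 1.67 over 850 windows, of which 99.5% were higher in PEO4. These limits were set after the values were seen. In bins of 1 Mb the median was 0.78 from 140 to 141 Mb, 0.82 from 141 to 142 Mb and 1.10 from 142 to 143 Mb. Apart from the windows from 137 to 138 Mb, medians above 1 thus began more than 10 Mb beyond the limit of the region. At the limit itself, the last window before it (chr8:129985200-129986200) averaged 3.32 FPKM in PEO1 and 5.40 FPKM in PEO4, and the first after it (chr8:130046400-130047400) averaged 5.21 and 3.15 FPKM.

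The levels of PEO1 and PEO4 were set against the range of their own chromosome arm. In the 40 bins of 2 Mb of the rest of 8q with at least 20 windows, the median PEO1 level ranged from 1.10 to 2.15 and that of PEO4 from 0.76 to 1.99 on the log2(FPKM + 0.1) scale. From 143 to 144 Mb the PEO1 median was -0.70, below that whole range, and the PEO4 median was 1.13, within it. From 145 to 146 Mb the medians were 0.50 and 2.08, and in the 37 windows beyond 146 Mb they were 1.64 and 3.0. PEO4 was above its range in both of these, and PEO1 was below its range in the former and within it in the latter. The median difference between the lines ranged only from -0.91 to 0.34 in the same 40 bins. Among 578 bins of 5 Mb in the whole table, the bin from 145 Mb ranked 1 and the bin from 140 Mb ranked 2 by the median log2 difference of PEO4 from PEO1, with 1.55 and 1.43. The bins that span 130 to 140 Mb ranked 92 and 86. The region was chosen on this same contrast, so the ranks describe that choice and carry no test.

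**Figure D2:**
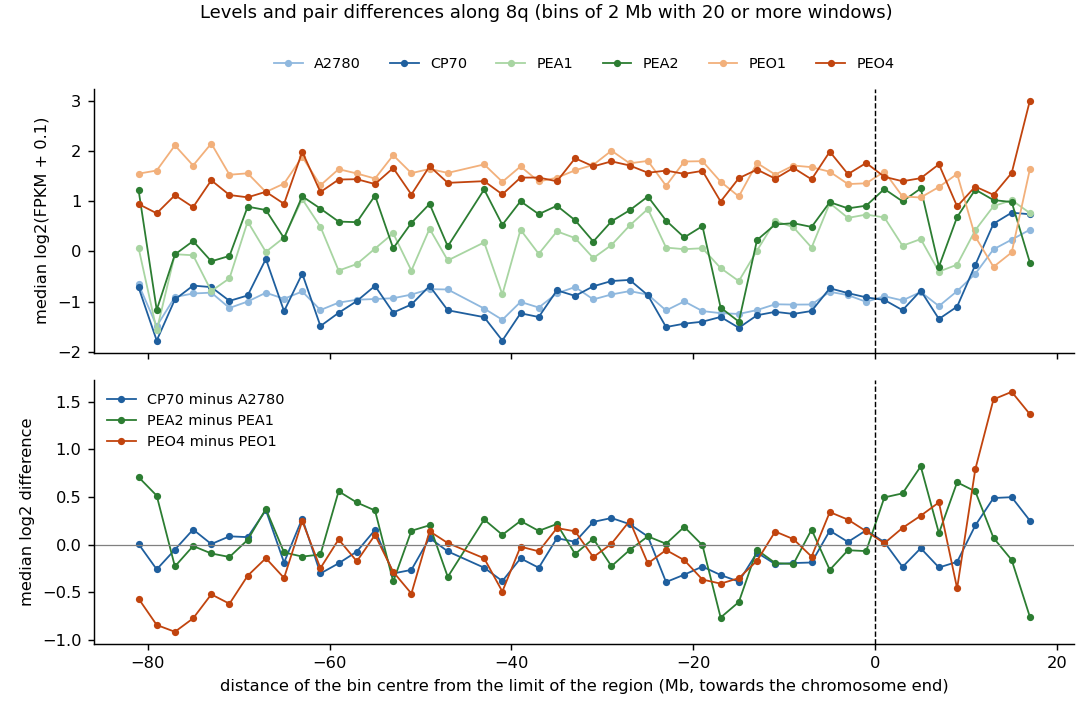
Median log2(FPKM + 0.1) of each line (top) and median log2 difference of each pair (bottom) in bins of 2 Mb along 8q, plotted by distance from the limit of the region (dashed line). Before the limit the PEO difference stays between -0.91 and 0.34, and more than 10 Mb beyond it PEO1 falls and the lines part. The last bin of PEA1 and PEA2 shows PEA2 below PEA1.

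The members also differed from their reference in base composition. The median GC content of distal members was 55.8%, against 43.1% in the rest of 8q and 48.9% on the other autosomes, and that of promoter members was 64.7%, against 55.3% and 58.7%. Windows were therefore also compared within classes of GC content. In distal windows above 65% GC, PEO1 had a median log2 level of -0.34 over 287 members, against 3.69 over 41 windows in the rest of 8q and 1.85 over 5676 windows on the other autosomes. PEO4 had 1.33, against 3.85 and 1.88. In this class the members lay below the rest of 8q in the other lines too, with 0.27 against 1.07 in A2780, 0.84 against 1.56 in CP70, 1.03 against 2.49 in PEA1 and 1.06 against 1.96 in PEA2, where all distal windows together had put these lines above it. In promoter windows above 65% GC, PEO1 had 3.17 over 82 members, against 4.23 and 2.89, and PEO4 had 4.55, against 4.49 and 3.03. The median log2 difference between PEO4 and PEO1 was 1.67 in these distal members and 1.37 in these promoter members, and at most 0.25 in the matched windows elsewhere. In distal windows under 45% GC the members had a median difference of 0.26, and 374 of them fell in this class. GC content moved with position, with a median of 45% before 139 Mb and 63.8% beyond 143 Mb, and its part in the difference along the stretch was not tested.

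**Figure D3:**
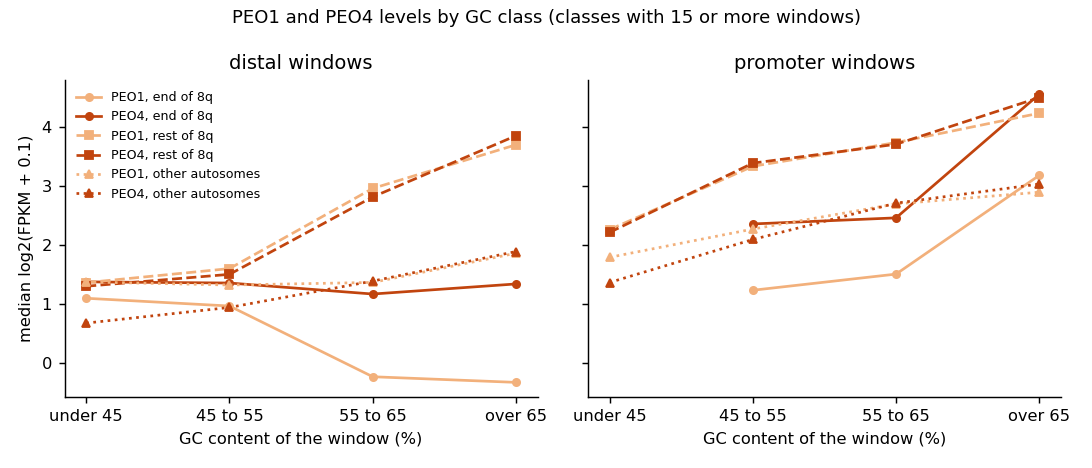
Median log2(FPKM + 0.1) of PEO1 and PEO4 by GC class, for the end of 8q (solid), the rest of 8q (dashed) and the other autosomes (dotted), in distal (left) and promoter windows (right). Above 55% GC, PEO1 and PEO4 run together outside the region and part inside it, by 1.52 in distal and 1.26 in promoter windows of 55 to 65% GC.

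The size of the difference varied little with how open a window was in the other 4 lines. Members beyond 140.5 Mb were split into quartiles of their mean FPKM over A2780, CP70, PEA1 and PEA2. The median log2 difference between PEO4 and PEO1 was 1.49, 1.56, 1.59 and 1.38 from the lowest to the highest quartile of distal windows, and 1.53, 1.27, 1.39 and 1.38 in promoter windows. With windows restricted to those above 2 FPKM in at least 2 libraries of these 4 lines, which neither PEO line could influence, the PEO shift against the rest of 8q was 1.22 ± 0.11 in distal and 1.07 ± 0.10 in promoter windows (log2, SD).

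The shifts of the region in the other pairs were of the size of the spread between their libraries. Against the rest of 8q, CP70 exceeded A2780 by 0.30 ± 0.22 in distal and 0.10 ± 0.26 in promoter windows, and PEA2 differed from PEA1 by -0.09 ± 0.23 and 0.23 ± 0.29 (log2, SD of the difference). These are descriptions over the members and carry no p.

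Among the single windows, none of 969 tested members was called in the A2780 pair at an adjusted p below 0.001 and a log2 fold change above 2 (limma, Benjamini-Hochberg), where 0.428% of all windows were called higher and 0.369% lower. At an unadjusted p under 0.05, with no fold limit, there were 471, or 48.6% of the tested members, against 59.1% of all windows. At an adjusted p below 0.05 without a fold limit, 338 members were higher in CP70 and 2 lower, against 47.5% and 2.29% of all windows. The median over all windows was itself 0.59 in this pair, and once each library was centred on its median the counts became 6 higher and 51 lower, against 6.08% and 9.07% of all windows. It took the median over all windows in the PEA pair, 0.31 as deposited, to -0.06, and that in the PEO pair, -0.30 as deposited, to 0.04.

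In the PEA pair 96 of 1696 tested members were called higher in PEA2 and 6 lower, against 11.2% and 1.42% of all windows. Through PEA2 alone 201 distal and 5 promoter members entered the table, and through PEA1 alone 39 distal and 1 promoter member. Such windows were not set apart in the counts of this pair or of its difference from the A2780 pair. Their direction follows from that selection, which applies to all windows of the table too. At an adjusted p below 0.05 the counts were 539 higher and 171 lower, against 43.0% and 21.4%, and after median centring 392 higher and 493 lower, against 34.4% and 37.2% with the same centring. The called windows were not placed evenly. From 130 to 139 Mb 52 of 455 were called higher, from 139 to 140.5 Mb 30 of 78, from 140.5 to 143 Mb 12 of 403, and from 143 Mb on 2 of 760. By gene, 10 of the windows called higher lay in COL22A1, 9 in TRAPPC9 and 5 in KCNQ3, and 58 lay outside protein-coding genes. The difference between the PEA and A2780 pairs was called in favour of the PEA pair in 96 of 1560 members and against it in 7, where 7.77% and 5.01% of all windows were called. At an adjusted p below 0.05 without a fold limit the counts were 298 and 325, against 22.7% and 32.9%.

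The windows between 139 and 140.5 Mb went the opposite way to the rest of the region in the PEO pair, and COL22A1, which encodes a collagen chain of tissue junctions, was at their centre. Its start window (chr8:139925700-139926700, promoter, overlapping an exon) gave 10.4, 11.2 and 11.6 FPKM in the 3 PEO1 libraries and 1.69, 1.73 and 1.89 FPKM in PEO4. The same window gave 1.09, 0.872 and 1.68 FPKM in PEA1 and 9.01, 7.34 and 8.03 FPKM in PEA2, and stayed under 1 FPKM in every library of A2780 and CP70. It was high in PEO1 and PEA2 and low in the other 4 lines, with no overlap between these sets. The rise in PEA2 was 2.69 ± 0.23 on the log2 scale (SE) with an adjusted p of 2.58e-30 (limma).

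An intronic COL22A1 window (chr8:139842900-139843900), 82884 bp from the gene start, followed the same order with a wider range. It gave 24.6, 23.9 and 23.2 FPKM in PEO1, 0.639, 1.44 and 1.35 FPKM in PEO4, 0.513, 0.561 and 0.815 FPKM in PEA1 and 17.1, 11.1 and 13.2 FPKM in PEA2. PEO4 fell by 4.34 on the log2 scale against PEO1, the lowest value of any distal member, and PEA2 rose by 4.25 ± 0.23 (SE, limma adjusted p = 2.39e-73). An intergenic window 38616 bp from the same start (chr8:139964400-139965400) averaged 13.3 FPKM in PEO1, 0.987 in PEO4, 0.466 in PEA1 and 7.77 in PEA2. Among promoter windows outside COL22A1 the lowest value was that of FAM135B, a gene nearby, with 4.14 FPKM in PEO1 and 2.08 FPKM in PEO4, and a rise of 1.26 in PEA2.

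The window with the strongest rise in the PEA pair did not differ in this way in the PEO pair. It lay in an intron of TRAPPC9, a subunit of a vesicle tethering complex (chr8:140962500-140963500), and gave 0.865, 0.841 and 0.623 FPKM in PEA1 and 23.6, 14.0 and 17.5 FPKM in PEA2. PEO1 averaged 22.9 FPKM and PEO4 18.4 FPKM, and both PEO lines were as high as PEA2. The PEA difference was 4.38 ± 0.23 on the log2 scale (SE, limma adjusted p = 2.03e-78). The members most reduced in PEA2 were intronic windows of ASAP1, which encodes an Arf GTPase-activating protein. One (chr8:131238900-131239900) gave 4.29, 4.08 and 2.49 FPKM in PEA1 and 0.44, 0.636 and 0.266 FPKM in PEA2, a fall of 2.79 ± 0.26 (log2, SE, limma adjusted p = 1.76e-25). The other (chr8:131080500-131081500) averaged 5.83 FPKM in PEA1 and 1.06 FPKM in PEA2, and neither exceeded 1 FPKM in any library of the other 4 lines. No library outside PEA1 exceeded 2 FPKM in either ASAP1 window, so both entered the table through PEA1 alone. That PEA1 lay above PEA2 and the other lines there follows from this selection, and the adjusted p carries no weight.

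**Figure D4:**
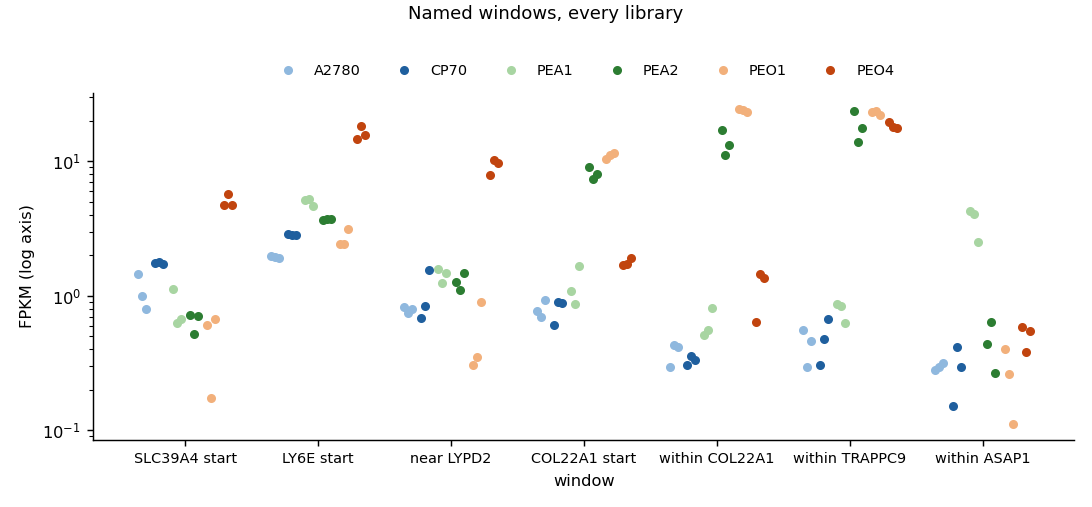
FPKM on a log axis in each of the 18 libraries for 7 named windows. The first 3 are high in PEO4, the COL22A1 windows are high in PEA2 and PEO1, the TRAPPC9 window is high in PEA2 and both PEO lines, and the ASAP1 window is high in PEA1.

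The largest differences of PEO4 from PEO1 were as follows. The promoter window of SLC39A4, a zinc importer (chr8:145641600-145642600, overlapping an exon), gave 0.607, 0.174 and 0.669 FPKM in PEO1, at most 6 reads a library, and 4.77, 5.71 and 4.73 FPKM in PEO4. PEO4 was 9.71-fold above PEO1, and A2780, CP70, PEA1 and PEA2 averaged 1.08, 1.75, 0.805 and 0.648 FPKM. No library of another line exceeded 2 FPKM, so this window entered the table through PEO4 alone. That PEO4 lay above all other libraries there follows from this selection and carries no weight. The WDR97 promoter window (chr8:145161900-145162900), which also overlaps MAF1, averaged 0.216 FPKM in PEO1 and 2.32 FPKM in PEO4, and CP70 averaged 2.09 FPKM there, so that PEO4 and CP70 overlapped. LY6E, a glycolipid-anchored surface protein of the LY6 family, had 2.43, 2.44 and 3.12 FPKM in PEO1 (24 to 28 reads a library) and 14.7, 18.4 and 15.6 FPKM in PEO4 at its promoter window (chr8:144099000-144100000). There PEO4 exceeded PEO1 5.92-fold and also exceeded PEA1, the next line, which averaged 4.99 FPKM. Among distal members the highest value was that of an intergenic window 4550 bp from the start of LYPD2 (chr8:143838000-143839000). It gave 0.304, 0.349 and 0.892 FPKM in PEO1 (3 to 8 reads a library) and 7.91, 10.2 and 9.66 FPKM in PEO4, or 16.5-fold. Exon-overlapping windows of TSNARE1 (chr8:143395200-143396200) and ADGRB1 (chr8:143591400-143592400) followed, with PEO4 above PEO1 10.8-fold in both. PEO1 held 1 to 4 reads a library in the TSNARE1 window and 5 to 9 in the ADGRB1 window. The LYPD2 and TSNARE1 windows also had no library of another line above 2 FPKM, so they too entered through PEO4 alone. In the ADGRB1 window only PEA2 replicate 3, at 2.75 FPKM, exceeded 2 FPKM outside PEO4. As at least 2 libraries were required, this window would not have entered without PEO4 either.

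Of 76 genes in 8 lists, 68 had the window of their start in the table, 58 of these windows being promoter and 10 distal by the definition above. The median log2 difference of PEO4 from PEO1 was 1.27 over these genes, where the median of all tested windows was -0.30 and that of the rest of 8q was -0.09. It ranged from -2.58 at COL22A1 to 3.28 at SLC39A4. It was above 0 in 63 and above 1 in 46, and PEO4 was the highest of the 6 lines in 59. These counts include start windows that entered the table through PEO4 alone, among them those of SLC39A4, FOXH1 and ZNF16. For comparison, 9.63% of all tested windows and 71.0% of the 169 promoter members exceeded 1, and PEO4 was highest in 40.3% of all promoter windows. Position divided the genes. The 12 that start before 139 Mb ranged from -0.41 to 0.99 with a median of 0.14, and none exceeded 1. The 6 between 140.5 and 143 Mb ranged from 0.79 to 1.04, and the 49 beyond 143 Mb ranged from 0.44 to 3.28 with 45 above 1. Over all windows of these stretches the medians were 0.22, 1.01 and 1.67. The lists differ in where their genes lie, and the part of position in the list medians was not tested. The start windows of CCN4, CYP11B1, CYP11B2, LYPD2, LY6L, LY6H and GML were not analysed here. BOP1 had no canonical coding transcript under that symbol and no value of its own, and the HSF1 start window is also its promoter window. PSCA and ADCY8 each belong to 2 lists.

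The growth and adhesion genes, most of which start before 139 Mb, had the lowest median, 0.27 over 10 genes, and 2 exceeded 1. ASAP1 and EFR3A, which starts in the same early part, differed by 0.02 and -0.07, and NDRG1, a stress-induced growth regulator, by 0.30. PTK2, the focal adhesion kinase, lies further along and averaged 28.4 ± 3.20 FPKM in PEO1 and 52.0 ± 5.98 FPKM in PEO4 (SD, n = 3). PTP4A3, a tyrosine phosphatase, averaged 12.6 and 25.6 FPKM, and PSCA, a LY6 surface protein, 0.892 and 3.20 FPKM. SLA, an adaptor of antigen receptor signalling, had 0.99 in the PEO pair and was higher in PEA2 by 0.94 (limma adjusted p = 0.000455).

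In the list of genome maintenance, chromatin and transcription factors, the median was 1.35 over 8 genes and 5 exceeded 1. RECQL4, a DNA helicase of replication and repair, gave 12.1, 15.5 and 12.6 FPKM in PEO1 and 41.1, 48.5 and 36.0 FPKM in PEO4, with no overlap and a 3.10-fold difference. TONSL, which acts at damaged replication forks, averaged 11.7 and 30.6 FPKM. HSF1, the master factor of the heat shock response, averaged 14.8 and 37.9 FPKM, and TOP1MT, the mitochondrial topoisomerase, 7.90 and 26.4 FPKM. PHF20L1, which starts before 139 Mb, averaged 24.5 and 27.9 FPKM.

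Among the 8 genes of RNA processing and translation the median was 1.29 and 6 exceeded 1. RPL8, a protein of the large ribosomal subunit, averaged 9.46 FPKM in PEO1 and 24.1 FPKM in PEO4, and EEF1D, a subunit of the elongation factor complex, 17.1 and 50.7 FPKM. MAF1, a repressor of RNA polymerase III, averaged 19.2 and 57.0 FPKM. AGO2, the slicing Argonaute protein, starts at 141.65 Mb and averaged 17.8 and 33.0 FPKM. KHDRBS3, an RNA-binding protein, starts at 136.47 Mb and averaged 29.6 and 36.3 FPKM.

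All 9 genes of metabolism exceeded 1, with a median of 1.45. Among them was SLC39A4, whose window entered through PEO4 alone. CYC1, the cytochrome c1 subunit of respiratory complex III, averaged 11.8 FPKM in PEO1 and 38.2 FPKM in PEO4, and PYCR3, an enzyme of proline synthesis, 22.2 and 60.9 FPKM. DGAT1, which makes triglycerides, averaged 17.9 and 45.2 FPKM, and GPT, an alanine aminotransferase, 0.706 and 3.83 FPKM. Of the 13 zinc finger genes 10 exceeded 1, with a median of 1.30. ZNF250 gave 22.6, 24.6 and 24.9 FPKM in PEO1 and 62.8, 69.9 and 57.6 FPKM in PEO4, and ZFAT, the only one of them that starts before 139 Mb, averaged 36.1 and 38.6 FPKM.

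The 7 LY6 family genes had the highest median, 1.72, and 6 exceeded 1. From 143 to 144 Mb, where PSCA lies, the median over all 274 windows was 1.82, and 99.6% were higher in PEO4. Apart from LY6E and LY6K, the windows of the LY6 genes averaged at most 3.2 FPKM in every line. LY6D averaged 0.532 FPKM in PEO1 and 2.38 FPKM in PEO4, and GPIHBP1, which carries lipoprotein lipase across capillaries, 0.471 and 1.65 FPKM. LY6K averaged 3.87 and 5.29 FPKM, and 3.0 and 3.87 FPKM in PEA1 and PEA2, and its log2 difference between the PEO lines, 0.44, was the lowest of the list. Of the 7 genes of cytoskeleton and epithelial junctions 5 exceeded 1. PLEC, the cytoskeletal linker plectin, averaged 12.3 and 32.6 FPKM, EPPK1, epiplakin, 7.69 and 23.2 FPKM, and SCRIB, a polarity protein, 9.07 and 22.1 FPKM. Of the 8 neural genes 4 exceeded 1. ARC, an immediate early gene of synaptic plasticity, gave 2.73, 2.97 and 4.35 FPKM in PEO1 and 22.1, 24.1 and 18.9 FPKM in PEO4.

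In the other pairs the same start windows moved differently. In the A2780 pair 9 of 62 tested were higher at an adjusted p below 0.05 (limma) and none lower, against 47.5% and 2.29% of all windows. The highest were GSDMD, a pore-forming protein of inflammatory cell death, at 0.99 (limma adjusted p = 0.00202), and PLEC at 0.92 (limma adjusted p = 0.00199). After median centring 0 were higher and 8 lower, and after quantile normalization 0 were higher and 20 lower, so the direction of this pair followed the scaling.

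In the PEA pair 7 of 64 were higher and 29 lower at an adjusted p below 0.05, against 43.0% and 21.4% of all windows, and 2 were called with a log2 fold change above 2. These were COL22A1 and KHDRBS3, the latter with 1.67, 2.06 and 1.87 FPKM in PEA1 and 12.8, 8.03 and 11.8 FPKM in PEA2. KHDRBS3 rose by 2.46 ± 0.23 (log2, SE, limma adjusted p = 1.04e-25) and was lowest in PEA1, since PEO1 and PEO4 averaged 29.6 and 36.3 FPKM and A2780 and CP70 averaged 3.38 and 4.18 FPKM. After median centring the counts were 7 higher and 50 lower, against 34.4% and 37.2% of all windows, and all 36 calls kept their sign.

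The lower windows of the PEA pair were most frequent at the very end of the chromosome. Beyond 145.6 Mb, a limit set after the values were seen, 50 of 59 tested members were lower in PEA2 at an adjusted p below 0.05 and 0 higher, and at 143 to 145.6 Mb 87 of 701 were lower and 50 higher, where 21.4% of all windows were lower and 43.0% higher. All 9 listed genes tested there were lower. RPL8 gave 3.46, 3.15 and 2.35 FPKM in PEA1 and 0.989, 1.16 and 1.02 FPKM in PEA2, a fall of 1.40 ± 0.24 (log2, SE, limma adjusted p = 2.24e-08). ZNF250 fell by 1.08 ± 0.23 (SE, limma adjusted p = 6.86e-06), and RECQL4 decreased by 0.91 ± 0.23 (SE, limma adjusted p = 0.000204). In distal windows beyond 145.6 Mb the level against the rest of 8q was -0.07 ± 0.23 in PEA1 and -0.95 ± 0.22 in PEA2 (log2 difference, SD, n = 3). In promoter windows beyond 145.6 Mb the level was -0.77 ± 0.29 in PEA1 and -1.41 ± 0.17 in PEA2, whereas at 143 to 145.6 Mb it was -0.27 ± 0.24 and -0.07 ± 0.21 (log2 difference, SD, n = 3). PEO1 went the other way, from -1.28 ± 0.07 at 143 to 145.6 Mb to -0.58 ± 0.04 beyond, and PEO4 from 0.04 ± 0.09 to 0.75 ± 0.14, so their difference was nearly unchanged across this limit. The promoter level of A2780 also rose, from -0.17 ± 0.27 to 0.63 ± 0.02, and that of CP70 from 0.03 ± 0.19 to 0.37 ± 0.16.

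**Figure D5:**
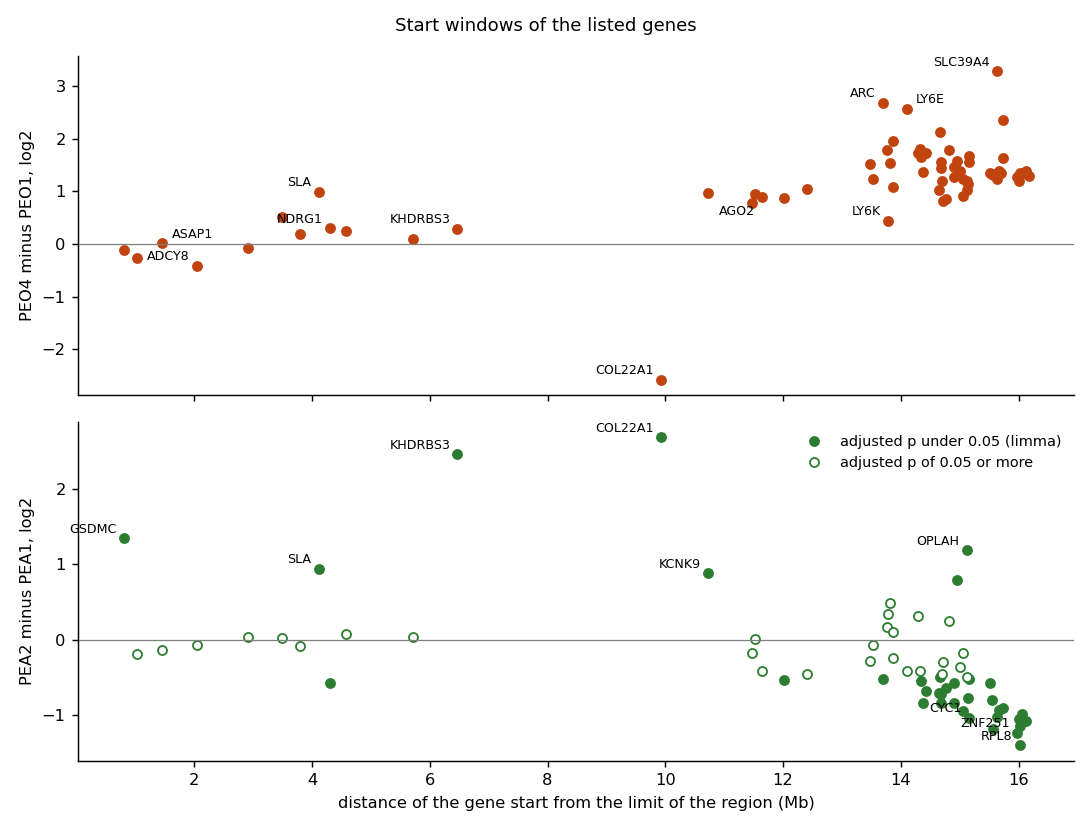
Log2 difference at the start window of each listed gene against distance from the limit of the region, for PEO4 minus PEO1 (top) and PEA2 minus PEA1 (bottom, filled where the limma adjusted p is under 0.05). PEO values sit near 0 for the first genes and above 1 for 45 of the 49 genes beyond 13 Mb, and PEA values of the last genes lie below 0.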

How the data were processed

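ATAC-seq values for 18 libraries were used, 3 for each of 6 cell lines. Reads had been aligned by the authors to hg19 (Bowtie2) and cleared of duplicates (Picard). They kept unique alignments outside blacklisted and mitochondrial sequence, counted these in windows of about 1 kb with featureCounts and deposited FPKM values per window and library. Tool versions are not given in the sources used here. Every value was a whole multiple of 1 read (100% of values, tolerance 0.001), which gave the library totals, but the deposited unit is FPKM and no count model is reported. limma 3.58.1 (R 4.3.3, trend) was run on log2(FPKM + 0.1) over all windows with a mean above 1 FPKM in the 6 libraries of a pair, or 12 for the difference of the PEA and A2780 pairs, with Benjamini-Hochberg adjustment. It was tested on simulated data. PEO4 against PEO1 chose the region and was not tested. Named windows were the start windows of listed genes, the most extreme promoter and distal windows of the PEO pair, the largest called changes of the other pairs and the windows at the limit, skipping windows within 2 kb. Genes and promoters follow GENCODE release 44 lifted to hg19. The members and lists were chosen with earlier results of these data known. Alternatives covered pseudocount, filters, scaling, reference, limit and left-out libraries.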

Additional observations from a re-analysis of the deposited data

Results flagged for a closer look

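The change from PEA1 to PEA2 differed from the change from A2780 to CP70 in 96 members in the higher and 7 in the lower direction, by a contrast of the 2 changes fitted with limma over 12 libraries. These are 6.15% and 0.449% of the 1560 tested members, against 7.77% and 5.01% of all windows. These windows are given because that difference was itself tested. Among the named windows, the PEA change exceeded the A2780 change by 4.39 on the log2 scale in the intron of COL22A1, by 4.27 in the intron of TRAPPC9, by 4.15 at the intergenic window 38616 bp from the start of COL22A1, and by 2.70 at the COL22A1 start window. At the start of KHDRBS3 the difference was 2.18. It was -2.70 and -2.28 in the 2 intronic windows of ASAP1. These 2 windows entered the table through PEA1 alone, so the sign of the difference follows from that selection and carries no weight.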

How the results depend on the processing

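The direction of the PEO shift held under every alternative run. The distal PEO shift of 1.01 became 0.68 with a pseudocount of 1, 1.14 with a mean above 1 FPKM, 1.16 without windows more than 1 SD above the median depth, 1.34 against the other autosomes, 0.76 with summed reads and 1.28 with the limit 5 Mb further along. The promoter PEO shift of 1.23 became 1.09 with a pseudocount of 1 and 1.01 with summed reads. Against the other autosomes the distal shift was 0.075 in the A2780 pair and -0.38 in the PEA pair, and with summed reads 0.22 in the PEA pair. The following were chosen after seeing the data. Levels against the other autosomes were -1.02 in PEO1 and 0.32 in PEO4 in distal windows, where the sign of PEO4 turned, and -0.29 and 1.00 in promoter windows, where PEA1 and PEA2 turned to 0.14 and 0.19. In windows open in the 4 other lines, the distal PEO shift was 1.22 and the promoter shift 1.07, distal levels were -1.72 in PEO1, -0.50 in PEO4, -0.15 in PEA1 and -0.10 in PEA2, and the promoter level of PEO1 was -0.97. At 55% GC or more the distal shift was 1.46 in the PEO and 0.42 in the PEA pair, and the promoter shift 1.07 in the PEO and -0.18 in the A2780 pair. With the limit 13 Mb further along the distal shifts were 1.69, 0.54 and -0.37 in the PEO, A2780 and PEA pairs, and the promoter PEO shift was 1.49.

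In the A2780 pair the 338 higher windows at an adjusted p below 0.05 (limma) became 1 at a mean above 5 FPKM, 6 after median centring, 10 after quantile normalization and 11 after removal of 5 Mb medians, and the 2 lower became 0, 51, 76 and 19, and 23 without a filter. In the PEA pair the 96 windows called higher became 33 with a pseudocount of 1, 12 above 5 FPKM, 43 under an upper depth limit, 59 after median centring, 54 after quantile normalization and 36 after removal of 5 Mb medians. The 6 called lower became 0 with a pseudocount of 1, 1 above 5 FPKM, 3 under the depth limit and 14 after quantile normalization. At an adjusted p below 0.05 the PEA counts were 29 higher and 32 lower above 5 FPKM, and 110 lower under the depth limit, 493 after centring, 515 after quantile normalization and 345 after removal of 5 Mb medians. In the PEO pair, windows above 1 numbered 592 with a pseudocount of 1, 196 above 5 FPKM and 176 after removal of 5 Mb medians. With a pseudocount of 1, above 5 FPKM, after centring, after quantile normalization and after removal of 5 Mb medians, those above 2 numbered 20, 27, 500, 453 and 34, those below -1 numbered 48, 31, 47, 49 and 184, and those below -2 numbered 5, 6, 6, 6 and 30. The difference of the PEA and A2780 pairs gave 34 higher and 1 lower with a pseudocount of 1, 2 and 0 above 5 FPKM, and 49 higher after removal of 5 Mb medians. Above 5 FPKM fewer windows were tested, and for the other changes the cause was not tested.

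Leaving out 1 library at a time, the distal shifts ranged from 0.24 to 0.41 in the A2780 pair, -0.19 to 0.00 in the PEA pair and 0.95 to 1.05 in the PEO pair, and the promoter shifts from 0.01 to 0.22, 0.11 to 0.36 and 1.19 to 1.27. Levels ranged from -1.18 to -1.08 in PEO1 and -0.15 to -0.11 in PEO4 in distal windows, and from -1.21 to -1.14 and 0.00 to 0.09 in promoter windows. A2780 calls stayed at 0, and those at an adjusted p below 0.05 ranged from 60 to 405 higher and 1 to 8 lower. The higher count was 117 without A2780 replicate 2, 60 without A2780 replicate 3 and 213 without CP70 replicate 3, and the lower count was 8 without CP70 replicate 1. PEA calls ranged from 82 to 111 higher with 6 lower, and from 471 to 547 and 112 to 204 at the looser threshold, with 112 without PEA1 replicate 1. PEO counts ranged from 928 to 1074 above 1, 228 to 309 above 2, 89 to 99 below -1 and 9 to 11 below -2. The difference of the pairs ranged from 77 to 110 higher and 6 to 11 lower, with 11 without CP70 replicate 2 and without PEA2 replicate 2.

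Same-number correlations ran from -0.41 to 0.04, and the main fits did not pair libraries by replicate number. In the PEO pair these correlations were 0.016, 0.0446 and 0.0385. Each PEO4 library there correlated best with the PEO1 library of its own number. With the number as a block, calls stayed at 0 in the A2780 pair, at 96 higher and 6 lower in the PEA pair and at 96 and 7 for their difference, and at an adjusted p below 0.05 they were 268 and 2 in the A2780 and 506 and 145 in the PEA pair. The planned edgeR tests on recovered reads were fitted but are not reported, because the deposited unit is FPKM. PEO1 had the fewest reads per window, so folds over its lowest windows rest on few reads and on the pseudocount.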
